A study of Mus musculus with 4 samples.

Results

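Genes that hold, sense or move zinc were followed in lesional facial skin: the metallothionein genes Mt1, Mt2 and Mt4, the zinc-sensing transcription factor gene Mtf1, and the zinc transporter genes Slc30a1, Slc39a2 and Slc39a10. They were picked by gene symbol. All 7 were found among 17037 genes, in 48 of 67319 clusters of transcription starts. The 4 samples, called libraries 1 to 4, were lesional skins of mice with the FADS model of facial atopic dermatitis, of genotype Nectin-cre(+);Ikk2FL/FL;Postn-/-, strain C57BL/6, at postnatal day 28. In this model Cre recombinase deletes Ikk2, a kinase of the NF-kB pathway, and all 4 samples also lack periostin. They form 1 group with no control, so the results are levels, start sites and differences between single libraries. The labels do not say whether the skins came from 4 animals, so a p-value here speaks of the scatter among the libraries alone, part of which may be technical.

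Metallothioneins are small cysteine-rich proteins that bind zinc and copper. Mt1 and Mt2 are induced in most tissues by metals, glucocorticoids and stress, whereas Mt4 is made in stratified squamous epithelia in mice. MTF1 enters the nucleus when zinc rises and binds metal-response elements, raising Mt1, Mt2 and Slc30a1, whose product exports zinc from the cell. ZIP proteins, among them those of Slc39a2 and Slc39a10, carry zinc into the cytosol, and Slc39a10 is repressed by MTF1 in mouse cells when zinc is high.

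The promoter windows of the 3 metallothionein genes and of Slc30a1 are shown because these held matches to the core of the metal-response element or, for Mt4, a TATA motif. Each runs from 250 bases before to 50 bases after the RefSeq start, 5′ to 3′ on the gene strand (GRCm38.p6). Capitals mark matches to TGCACNC or TGCGCNC on either strand, or to TATAAA on the gene strand. The windows lie on the plus strand, at chr8:94178839-94179138 for Mt1, chr8:94172368-94172667 for Mt2, chr8:94136954-94137253 for Mt4 and chr1:191906531-191906830 for Slc30a1.
Mt1: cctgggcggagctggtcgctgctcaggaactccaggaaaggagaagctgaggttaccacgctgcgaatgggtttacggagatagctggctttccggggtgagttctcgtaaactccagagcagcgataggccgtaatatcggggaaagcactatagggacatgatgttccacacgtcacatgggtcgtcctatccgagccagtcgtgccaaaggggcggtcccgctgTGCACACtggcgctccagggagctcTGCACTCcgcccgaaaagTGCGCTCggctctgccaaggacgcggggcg
Mt2: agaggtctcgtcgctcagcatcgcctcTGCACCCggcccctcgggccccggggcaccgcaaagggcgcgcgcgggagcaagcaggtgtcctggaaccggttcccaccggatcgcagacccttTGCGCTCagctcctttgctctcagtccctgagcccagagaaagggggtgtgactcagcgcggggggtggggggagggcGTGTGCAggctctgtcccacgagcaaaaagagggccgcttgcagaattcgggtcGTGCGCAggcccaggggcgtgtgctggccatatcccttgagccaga
Mt4: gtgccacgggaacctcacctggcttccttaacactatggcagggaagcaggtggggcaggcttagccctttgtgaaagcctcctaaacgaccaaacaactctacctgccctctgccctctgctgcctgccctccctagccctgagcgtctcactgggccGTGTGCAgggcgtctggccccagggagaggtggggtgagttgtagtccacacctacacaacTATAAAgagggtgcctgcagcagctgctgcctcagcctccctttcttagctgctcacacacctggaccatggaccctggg
Slc30a1: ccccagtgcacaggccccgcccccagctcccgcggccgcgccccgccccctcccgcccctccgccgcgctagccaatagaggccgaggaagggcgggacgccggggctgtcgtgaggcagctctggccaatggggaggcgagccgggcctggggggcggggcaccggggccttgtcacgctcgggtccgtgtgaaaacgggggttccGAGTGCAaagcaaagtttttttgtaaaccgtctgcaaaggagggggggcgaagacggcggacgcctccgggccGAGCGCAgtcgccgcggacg

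Mt2 held 4 matches to the metal-response core, Mt1 held 3, Slc30a1 held 2 and Mt4 held 1. The RefSeq windows of Mtf1, Slc39a2 and Slc39a10 held 0, which says only that these letters were not in those windows. The first Slc39a10 window overlapped no cluster of the gene, and the second overlapped clusters with 43.5% of its tags, so not all of its starts were searched. Of all 32851 RefSeq promoter windows of the same length, 25.7% held at least 1 match, 7.11% at least 2, 1.97% at least 3 and 0.517% at least 4. Mt4 had TATAAA at bases -30 to -25 from its RefSeq start, a motif that 8.32% of the windows held on the gene strand.

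For Mt1 and Mt2 the strongest tag clusters reached well past these windows. The Mt1 cluster ran from 94179097 to 94179286, and the Mt2 cluster from 94172616 to 94172827, on chromosome 8, plus strand. The first exon of the GENCODE transcript Mt1-201 spans 257 bases that contain this Mt1 cluster, and its sequence held 4 matches, 3 of them inside the cluster. Of the 4, TGCACTC and TGCGCTC were already counted in the Mt1 promoter window. The first exon of Mt2-201, of 212 bases, held 3 matches, all inside the Mt2 cluster. Among coding transcripts in GENCODE, 0.195% had at least 4 matches in their first 257 bases and 0.655% had at least 3 in their first 212 bases. The sites are given with 8 bases on each side, capitals marking the match. All but the first Mt1 site lie inside the strongest clusters, within which the positions of the tags are not known.
Mt1 at chr8:94179083-94179105: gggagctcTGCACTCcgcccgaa
Mt1 at chr8:94179101-94179123: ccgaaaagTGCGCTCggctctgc
Mt1 at chr8:94179165-94179187: cgcctgctGGGTGCAaacccttt
Mt1 at chr8:94179179-94179201: aaacccttTGCGCCCggactcgt
Mt2 at chr8:94172668-94172690: aaaagggcGTGTGCAggcggcgg
Mt2 at chr8:94172687-94172709: gcgggggcGCGTGCAtggtgcct
Mt2 at chr8:94172721-94172743: ggagctttTGCGCTCgacccaat

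TATAAA also lay inside both clusters, at bases 94179210 to 94179215 in Mt1 and 94172753 to 94172758 in Mt2. It was held by 3.27% of the first 257 bases and 2.67% of the first 212 bases of coding transcripts. Annotated starts of the other Mt1 transcripts, at 94179211 and 94179241, lie within the cluster as well. The table gives no positions within a cluster, so how the tags divide between these annotated starts was not measured. A sequence match is a description and not evidence of binding.

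Levels are in CPM, the tags of a gene scaled to a common library total. Each tag is taken as the capped 5′ end of 1 RNA, whatever its length, so levels of different genes were compared within a library. This holds as far as the tags are capped ends and all tags of a gene are counted under it, which was not tested. The libraries held 17630119 to 18823630 tags, with 3 tags, taken as the limit of detection, worth 0.159 to 0.170 CPM. Skin markers were present, with Krt10 of the suprabasal epidermis at 3476 ± 808 CPM and Krt14 of the basal epidermis at 736 ± 177 CPM. RNA of secretory glands was uneven: the summed level of 5 gland genes was 9.13, 40699.6, 0.113 and 8714 CPM in libraries 1 to 4, with Smr3a, Mucl2, Obp1a and Gm1553 at 0 in library 3.

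Mt1 and Mt2, which buffer cellular zinc, were abundant in every library. Mt1 stood at 445, 426, 402 and 483 CPM in libraries 1 to 4, a mean of 439 ± 34.5 CPM (SD, n = 4) and rank 237 by level. Mt2 stood at 390, 337, 349 and 457 CPM, or 383 ± 54.2 CPM. Both were highest in library 4, and neither varied by more than 1.36-fold between the highest and the lowest library. Mt2 was below Mt1 in 4 of 4 libraries, with ratios of 0.877, 0.791, 0.869 and 0.945. The mean log2 ratio of Mt2 over Mt1 was -0.20 ± 0.11, and the exact sign-flip test gave p = 0.125, two-sided, which is the smallest p that 4 libraries allow (adjusted over 6 pairs, 0.15).

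Mt4, the metallothionein of stratified epithelia, split the libraries. It stood at 456 and 406 CPM in libraries 1 and 2 and at 131 and 165 CPM in libraries 3 and 4, or 290 ± 165 CPM. The highest library exceeded the lowest 3.47-fold, and no value lay between 165 and 406 CPM. Libraries 1 and 2 share the first part of their sample code, as do libraries 3 and 4, and the labels do not say what the code means. In libraries 1 and 2 Mt4 was above Mt2, with ratios of 1.17 and 1.21, while in libraries 3 and 4 it was below it, with ratios of 0.376 and 0.361. The mean log2 ratio of Mt4 over Mt2 was therefore uninformative, at -0.60 ± 0.97 (exact sign-flip p = 0.5, adjusted over 6 pairs 0.5).

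The remaining metallothionein gene, Mt3, known from neurons in the brain, was low (rank 13464 of 17037) at 2.36 ± 0.546 CPM. Its values were 2.97, 2.39, 1.64 and 2.45 CPM in libraries 1 to 4.

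**Figure D1:**
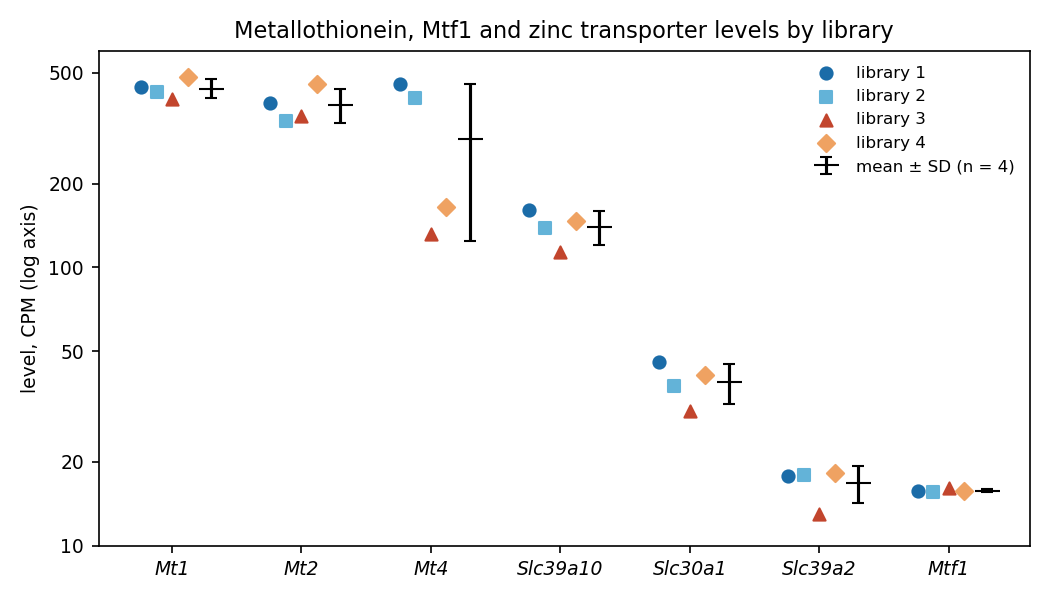
Level of each gene in CPM (vertical log axis) in libraries 1 to 4 (symbols), with the mean and SD of the 4 libraries (black). Mt4 lies at 456 and 406 CPM in libraries 1 and 2 and at 131 and 165 CPM in libraries 3 and 4, while the 4 values of Mtf1 nearly coincide.

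Mtf1, which encodes the zinc sensor, was low and even. It stood at 15.7, 15.6, 16.1 and 15.8 CPM, or 15.8 ± 0.234 CPM, from 283 to 293 tags a library. This spread was 0.251 times the 0.932 CPM that counting error alone gives at that depth, so no difference between libraries was detectable.

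The exporter gene Slc30a1, the classic MTF1 target among transporters, stood at 45.6, 37.6, 30.5 and 41.1 CPM, or 38.7 ± 6.37 CPM. The importer gene Slc39a10, needed for the formation of the epidermis in mice, was the highest transporter at 160, 139, 113 and 147 CPM, or 140 ± 19.8 CPM. Slc39a2, an importer of keratinocytes, stood at 17.8, 18.01, 12.99 and 18.3 CPM, or 16.8 ± 2.53 CPM. All 3 had their lowest value in library 3. Slc39a10 exceeded Slc30a1 by 3.51, 3.69, 3.71 and 3.58-fold, so their ratio varied less between libraries than either level (log2 1.86 ± 0.04). Counting each gene by its strongest cluster only, that log2 ratio was 0.28, since Slc39a10 spreads its tags over many clusters. Slc39a2 stood at 0.1199 of Slc39a10 (log2 -3.06 ± 0.10), Slc39a10 exceeded Mtf1 8.78-fold (log2 3.13 ± 0.23), and Slc30a1 exceeded Mtf1 2.42-fold (log2 1.28 ± 0.26). Each of these 4 ratios had 1 direction in 4 of 4 libraries, with an exact sign-flip p = 0.125 (adjusted over 6 pairs, 0.15).

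In order of mean level, Mt1, Mt2 and Mt4 came first, then Slc39a10, Slc30a1, Slc39a2 and Mtf1. The values of Mt1 and Mt2 overlapped between libraries, as did those of Mt4 with both. Slc39a10 overlapped with Mt4 through the Mt4 value of library 3, and Slc39a2 overlapped with Mtf1. Slc30a1 overlapped with neither neighbour.

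The spread of each gene between libraries was tested against that of genes of its level, with limma on log2(CPM + 1) after TMM scaling, which sets the libraries to a common scale. At an adjusted p under 0.05 the test called 56 of 14732 genes, 0.380%, and 0 of the 7 members. Mt4 came nearest, with a range of 1.86 on the log2 scale (limma, adjusted p = 0.109), and was the 1 member with an unadjusted p under 0.05. On recovered tags edgeR called 0.224% of genes and 0 members, and DESeq2 marked 3.48% of genes and 1 member, Mt4, as dispersion outliers. The adjusted p of Mt4 ran from 0.0537 to 0.322 over the other limma and edgeR settings. Ranges of the other members were 0.64 for Slc30a1, 0.59 for Slc39a2, 0.57 for Slc39a10, 0.38 for Mt2, 0.26 for Mt1 and 0.14 for Mtf1 (limma adjusted p from 0.815 to 0.996). The median range of the 7 was 0.57, beside 0.28 over all tested genes.

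After TMM scaling 6 of the 7 genes were lowest in library 3, with Mtf1 lowest in library 4; of all tested genes 29.3% were lowest in library 3. Before TMM scaling 5 of the 7 were lowest in library 3, against 17.25% of all tested genes, and Mt2 and Mtf1 were lowest in library 2. Marker lists also differed between the libraries. The 8 hair follicle markers were all detected in every library, and 1 of them was called by limma. They summed to 9027, 8181, 4051 and 5793 CPM, the same order of libraries as Mt4 has. Within the list Krt34, the gene called, and Krt31 were instead lowest in library 4, at 58.0 and 154 CPM. The 4 melanocyte markers, also detected in every library, summed to 322, 305, 222 and 232 CPM, again in the order of Mt4. The 8 suprabasal markers summed to 9800, 8658, 13328 and 12382 CPM, highest in library 3, and the 5 basal markers to 2003, 1770, 2648 and 2130 CPM. The 6 fibroblast markers summed to 3630, 3224, 6120 and 5426 CPM and the 5 sebaceous gland markers to 648, 732, 1307 and 936 CPM, both highest in library 3. The 5 skeletal muscle markers summed to 2607, 1928, 3106 and 4852 CPM, highest in library 4. Each of these lists was detected whole in every library. Ivl, the involucrin gene of the cornified envelope, was an exception in the suprabasal list at 264, 270, 207 and 150 CPM. Fads2 was an exception in the sebaceous gland list at 36.1, 31.1, 27.4 and 28.5 CPM, lowest in library 3. The part of tissue makeup in the values of Mt4 and the transporters was not tested, and in bulk skin fewer cells of a type and less RNA per cell cannot be told apart.

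**Figure D2:**
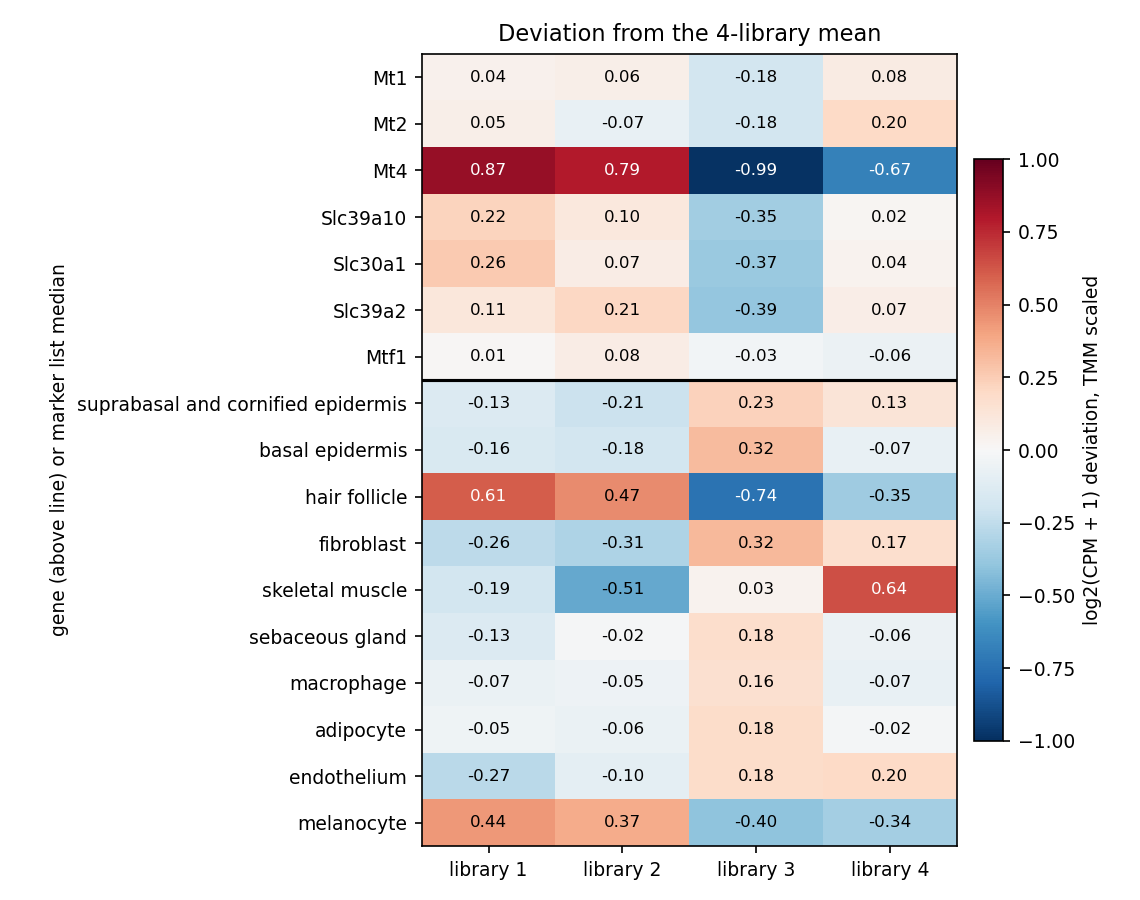
Deviation of each gene (above the line) and median deviation of each marker list (below it) from the mean of the 4 libraries, in log2(CPM + 1) with TMM scaling. The list of gland genes is left out. Red is above and blue below the mean. Mt4 ranges from 0.87 in library 1 to -0.99 in library 3. In the same libraries the hair follicle list ranges from 0.61 to -0.74 and the melanocyte list from 0.44 to -0.40.

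The genes with the most similar profiles over the 4 libraries were sought among 10310 genes of at least 10 CPM, by the root mean square difference of centred log2 values; with 4 libraries this is a description only. Slc30a1 was nearest to Heyl and Gcnt1, and Slc39a10 came next at a difference of 0.03. For Slc39a10 the order was Golga7b, Specc1l and Heyl, with Slc30a1 next. Mt4 was nearest to Gm11939, Calhm4 and Stbd1, at larger differences of 0.08 to 0.11. Calhm4, for example, stood at 23.2, 20.9, 6.98 and 7.41 CPM. Mt1 was nearest to Irf5, Tia1 and H2bc4, Mt2 to Pex10, Ptpn14 and Tbx1, Slc39a2 to Gm5903, Zfp422-ps and Fzd5, and Mtf1 to Cib1, Slc35a2 and Map2k2. Mt2 ranked 2220th among the profiles nearest to Mt1, and Mt1 418th among those nearest to Mt2.

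Most of the genes used 1 start region. The most used cluster held 97.1 ± 0.284% of the tags of Mt1, 96.0 ± 0.808% of Mt2, 99.97% of Mt4, 99.7% of Slc30a1 and 98.7 ± 1.07% of Slc39a2, and Mtf1 had 1 cluster only. Over 7510 genes with several clusters and at least 100 tags a library, the median share was 95.04%, with a median SD of 0.811. The strongest clusters of Mt4 (94137152 to 94137244 on chromosome 8), Mtf1 (124802522 to 124802612 on chromosome 4), Slc30a1 (191906664 to 191906848 on chromosome 1) and Slc39a2 (51893589 to 51893698 on chromosome 14) each spanned an annotated start, all on the plus strand. None of the 48 clusters was listed under another gene.

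Minor starts of Mt1 and Mt2 lay both inside the genes and just upstream of them. The highest upstream clusters were at 94179065 to 94179074 for Mt1, with 1.84 ± 0.243 CPM, and at 94172559 to 94172589 for Mt2, with 1.62 ± 0.562 CPM. An intronic Mt2 cluster, from 94172970 to 94173016 in the first intron, stood at 13.1, 12.3, 7.83 and 13.4 CPM, lowest in library 3. The share of Mt2 in its strongest cluster was highest there, at 97.0% (95% Wilson interval 96.5 to 97.4), against 95.9% and 96.1% in libraries 1 and 4, and lowest in library 2 (interval 94.4 to 95.5). Mt1 had a cluster of 3.87 ± 0.478 CPM from 94179821 to 94179825, which spans the first base of its second exon. An Slc39a10 cluster of 8.25 ± 1.11 CPM likewise spans the first base of the second exon of that gene. Of 19397 named clusters of at most 10 bases that were listed under 1 gene, 6.18% spanned the first base of an internal exon of it.

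Slc39a10 differed from the other members in how its starts were spread. It had 23 clusters, a number that 0.282% of genes reach or exceed, against a median of 2, and its strongest cluster held only 33.5 ± 3.01% of its tags. The gene lies on the minus strand of chromosome 1, and its clusters fell into 4 regions by the nearest annotated transcript start. The region of Slc39a10-201, with 15 clusters from 46853348 to 46854483, held 60.7%, 61.4%, 65.8% and 58.4% of the tags in libraries 1 to 4. The region of Slc39a10-204, which starts 38806 bp further upstream, held 25.8%, 24.9%, 20.1% and 25.7%. Neither of these regions had a cluster that spanned its annotated start. The strongest cluster of the Slc39a10-201 region lay 388 bp downstream of that start, and another lay just upstream of it. The clusters of the Slc39a10-204 region all lay upstream of its start, outside the annotated gene. The region of Slc39a10-203, which starts 4782 bp downstream of Slc39a10-204, held 7.77%, 7.11%, 8.12% and 9.62%. The remaining 5.74% to 6.57% lay in the second exon, nearest to a retained-intron transcript. Nearly all of it, 5.91 ± 0.353% of the tags, was in the cluster named above that spans the first base of that exon.

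Slc39a10-201 and Slc39a10-204 have different first exons and the same annotated start codon in their second exon, whereas the start codon of Slc39a10-203 lies in its own first exon. The share of the upstream Slc39a10-204 region was lower in library 3, with a 95% Wilson interval of 18.4 to 21.96%, than in the others, whose intervals began at 23.3% or above. This region also varied most in level, at 41.3, 34.6, 22.8 and 37.8 CPM, a 1.81-fold range, whereas the Slc39a10-201 region stood at 97.1, 85.4, 74.5 and 86.0 CPM, a 1.30-fold range. Intervals cover counting error only.

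**Figure D3:**
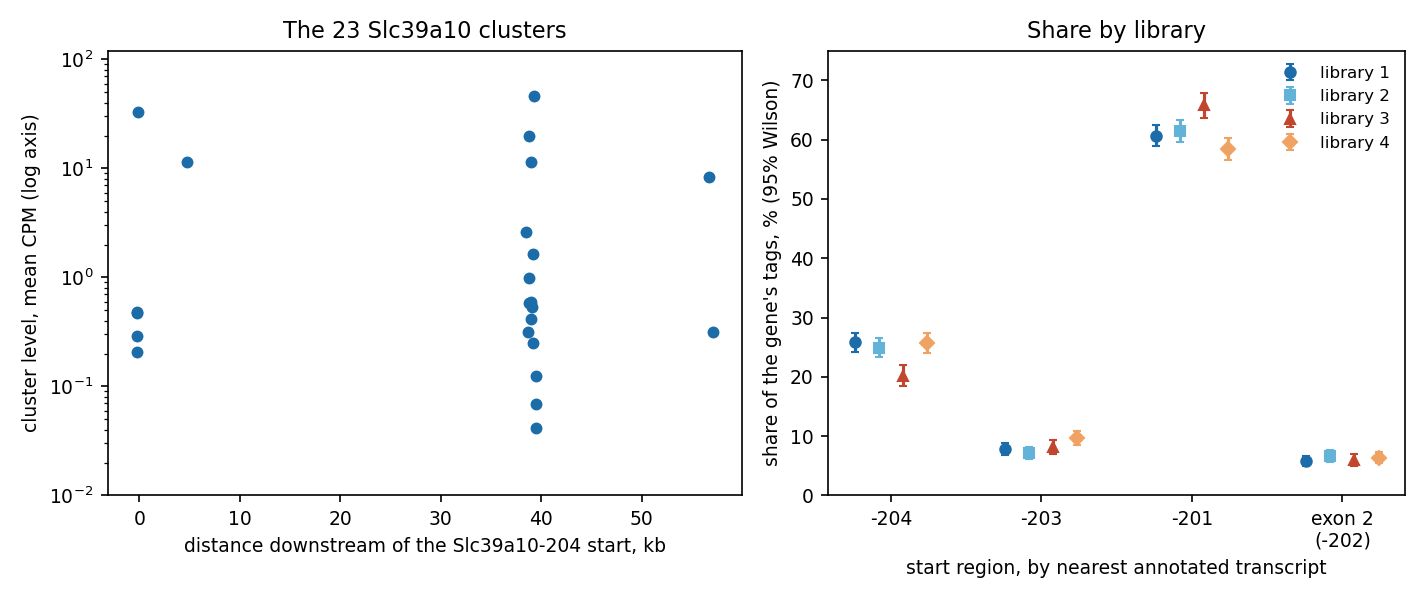
Left, mean level of the 23 Slc39a10 clusters (CPM, log axis) by their distance downstream of the Slc39a10-204 start. Right, share of the tags in each start region by library with 95% Wilson intervals; the Slc39a10-204 region holds 20.1% in library 3 and 24.9 to 25.8% in the others.

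The wider transporter families set these genes in context. Of 10 ZnT (Slc30a) exporters 7 were in the table and 6 were tested, with 0 called by limma. Slc30a9, which acts in mitochondria, led at 56.1 ± 2.63 CPM, followed by Slc30a4 at 46.1 ± 1.46, Slc30a7 of the secretory pathway at 43.6 ± 2.75, Slc30a1 at 38.7 ± 6.37 and Slc30a5 at 35.0 ± 1.36 CPM. Slc30a1 thus stood below 3 others of its family and had the largest range of the 6 tested. Of 14 ZIP (Slc39a) importers 12 were in the table and tested, with 0 called by limma. Slc39a10 led, followed by Slc39a7 of the endoplasmic reticulum, which shares 99.8% of its tags with another listed gene, at 89.7 ± 2.44, Slc39a6 at 82.4 ± 6.52, Slc39a1 at 72.5 ± 2.66 and Slc39a8 at 55.5 ± 6.68 CPM. Slc39a4, the intestinal importer mutated in acrodermatitis enteropathica, stood at 2.45 ± 0.944 CPM. Median ranges were 0.18 for ZnT and 0.36 for ZIP genes on the log2 scale, beside 0.28 over all tested genes.

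**Figure D4:**
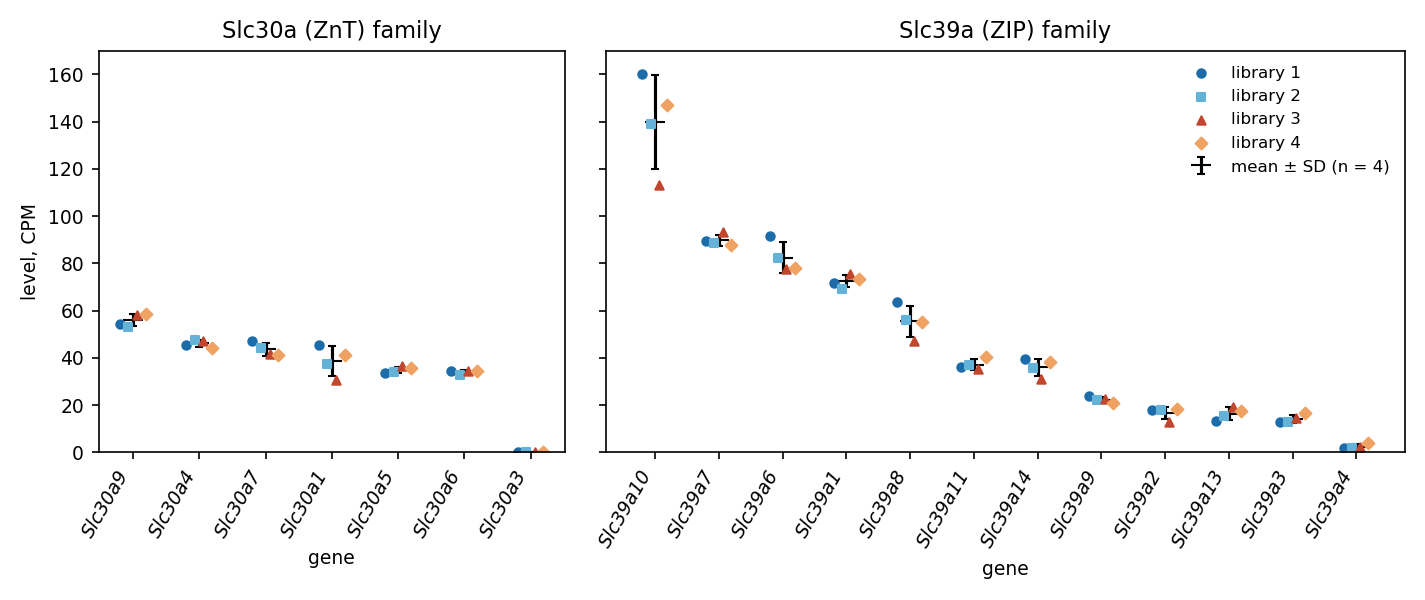
Level in CPM of the Slc30a (ZnT) genes, left, and the Slc39a (ZIP) genes, right, in libraries 1 to 4 with mean and SD. Slc39a10 leads at 140 CPM, and Slc30a1 stands at 38.7 CPM, below 3 other ZnT genes.

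Other genes of metal response and of glucocorticoid response, both inducers of Mt1 and Mt2, were listed for comparison. Of 12 genes linked to MTF1, 10 were tested and 0 called by limma. The highest were Fth1, the ferritin heavy chain gene, at 1101 ± 130 CPM, Prnp, whose clusters are all listed under another gene too, at 222 ± 21.05, Slc40a1, the iron exporter gene, at 156 ± 41.2, Slc39a10 and Cebpa at 116 ± 27.5 CPM. Slc40a1 stood at 201, 177, 109 and 137 CPM, lowest in library 3 as were Slc30a1, Slc39a2 and Slc39a10. The MTF1-linked list as a whole was not low there, with a median TMM-scaled log2 deviation of -0.004. Fth1 and Cebpa were highest in library 3, at 1240 and 149 CPM. Of 17 other metal handling genes 16 were tested and 0 called. Beside Fth1 and Slc40a1 they were led by Atox1, a copper chaperone gene, at 330 ± 28.1, Tfrc, the transferrin receptor gene, at 80.2 ± 4.20, and Znrf1 at 75.8 ± 4.60 CPM. All 10 glucocorticoid-induced genes were tested and 0 called, led by Cdkn1a at 187 ± 23.8, Sgk1 at 122 ± 10.8, Tsc22d3 at 106 ± 26.8, Per1 at 96.3 ± 2.92 and Dusp1 at 40.2 ± 11.3 CPM. With no healthy or untreated skin, none of these levels shows an induction.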

How the data were processed

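Cap analysis of gene expression (CAGE) was done on 4 libraries of total RNA, per the labels' protocols. BWA, HISAT2 and the mm9 build are named in the submitters' processing notes. A clustering method was not given in the sources used here. Clusters matched GENCODE M21 starts on GRCm38, so positions are given on GRCm38 as deposited, uncertain by 1 bp. The deposited values are CPM per cluster. They were whole multiples of 1 tag in all values (tolerance 0.02 tags), and whole tags were recovered: 18179860, 18823630, 17630119 and 17939565 in libraries 1 to 4. A cluster listed under several genes counts again in these totals. Tags were summed per gene. Where several genes list a cluster, 1 was taken as its owner: named genes came before predicted and small RNA genes, and otherwise the gene of higher total won. Left out were 779 of the 17849 genes, for which 90% or more of the signal lay in clusters owned elsewhere, and 33 without any tag.

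Spread was tested in limma 3.58.1 on log2(CPM + 1), with TMM scaling (factors 0.988, 0.931, 1.04 and 1.05), for genes of at least 1 CPM on average, with a robust prior trended on level, an F test for excess spread (one-sided), with p adjusted by Benjamini-Hochberg over all genes tested. The alternatives were edgeR 4.0.16 and DESeq2 1.42.0 on recovered tags, other scalings, filters and pseudocounts, and leaving out each library. The method was tested on simulated data in which each changed gene differed in a single library, so that test does not cover a split such as that of Mt4. Ratios used 0.5 added tags and an exact sign-flip test. Promoter sequences are from RefSeq (GRCm38.p6), where all 7 members matched by symbol; first-exon sequences are from GENCODE transcripts. The members and lists were chosen with earlier results of these data known. Named genes are the members, the 5 highest of each family or list, genes called in it, and the 3 nearest profiles. Krt10, Krt14, Krt31, Slc39a4, Ivl, Fads2, Smr3a, Mucl2, Obp1a and Gm1553 stand outside that rule where named and were chosen after their values were seen.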

Additional observations from a re-analysis of the deposited data

Results flagged for a closer look

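Slc39a2 in library 3, at 12.99 CPM, lay far below the other libraries, which stood at 17.8 to 18.3 CPM. The share of Slc39a10 tags in the upstream Slc39a10-204 region was likewise far lower in library 3, at 20.1%, than in the others. These were 2 of 23 sets of 4 values examined in this way, and chance flags about 1 in 20.

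A further 3 clusters with no gene name, which enter no comparison above, held more than 3 tags in every library near the members. A cluster on the strand opposite to Slc39a10, inside that gene from 46885755 to 46885760 on chromosome 1, stood at 0.728 ± 0.265 CPM. A cluster on the strand opposite to Mtf1, from 124802426 to 124802452 on chromosome 4, stood at 0.346 ± 0.112 CPM and lies just upstream of the start of Mtf1. A cluster on the strand of Mtf1, from 124804656 to 124804658, stood at 0.401 ± 0.0611 CPM.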

How the results depend on the processing

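No paired analysis was run: all 4 samples belong to 1 group, and the labels do not say whether any of them are paired. The call of none of the 7 members by the spread test held under every limma and edgeR alternative, and DESeq2 marked Mt4 alone. The number of genes called over the whole table depended on the setting: 56 in the reported fit, 34 with DESeq2 size factors, 104 with no scaling, 0 with at least 10 tags in every library (limma, 920 at an unadjusted p under 0.05), 10 with a prior that was not robust, 33 by edgeR and 513 dispersion outliers by DESeq2. Leaving out 1 library gave 10 to 111 calls, with 111 without library 3 and 10 without library 4; the cause was not tested. The adjusted p of Mt4 ran from 0.0727 to 0.315 with 1 library left out. The mean log2 ratio of all 6 pairs kept its sign under the alternatives run. With 1 library left out it ran from -0.24 to -0.16 for Mt2 over Mt1 and 1.84 to 1.87 for Slc39a10 over Slc30a1. For Mt4 over Mt2 it ran from -0.89 to -0.30. Libraries 1 and 2 had the opposite sign to libraries 3 and 4 for that pair, so the sign of its mean is uninformative. Counting each gene by its strongest cluster only moved the 3 ratios with Slc39a10, whose strongest cluster holds 33.5% of its tags: to 0.28 over Slc30a1, to 1.55 over Mtf1, and to -1.50 for Slc39a2 over Slc39a10. The levels of all 7 members were higher with totals over distinct clusters, since each total is then smaller: Mtf1 was at 16.8 CPM and Mt1 at 469 CPM. The share of Slc30a1 in its strongest cluster was 100% with clusters of at least 10 tags alone, which removes its other cluster. No cluster of a member is listed under another gene, so leaving shared clusters out changed nothing. At about 283 tags a library, differences in Mtf1 below counting error cannot be seen.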
